A study of Mus musculus with 6 samples.

Results

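Neutrophils from the bone marrow of naive mice are described here at their baseline, from the 2 naive libraries of a series of 6. Both libraries were taken by their label, and no value in them was used to choose them. The labels number them as replicate mice, called replicate 1 and replicate 2 below. The other libraries came from mice 1 week and 3 weeks after LL2 lung carcinoma cells of mouse origin had been injected, and were not analysed here. According to the methods, the mice bought were C57BL/6N CD45.1+ of both sexes and C57BL/6 CD45.2+ females, at an age of 6 to 8 weeks, and the labels of the naive libraries give neither strain nor sex. Cells were taken with magnetic beads against Ly6G, a surface protein of mouse neutrophils, to a purity above 95%, and total RNA was sequenced. The libraries held 11994158 and 12357259 counts over 38887 gene identifiers, of which 12945 had at least 3 counts in both libraries. CPM below is a gene's counts divided by its library's total and multiplied by 1000000. TPM is the same after division by the summed length of a gene's exons. Only TPM takes length into account, so orders of genes or lists by CPM also depend on exon length. In these bulk samples, fewer cells of a type and less RNA per cell cannot be told apart.

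Neutrophils mature in the bone marrow through promyelocyte, myelocyte, metamyelocyte and band stages. Their granules are filled in waves as they do so: primary (azurophil) granules with myeloperoxidase and serine proteases at the promyelocyte stage, secondary (specific) granules with lactoferrin and cathelicidin in myelocytes, and tertiary (gelatinase) granules later. Transcripts of granule proteins therefore change with the stage of a cell, while its stored proteins persist. S100A8 and S100A9 pair to form calprotectin, which binds calcium and metals and is the major cytosolic protein of neutrophils.

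Of 16 neutrophil identity genes, 14 had a mean of at least 10 CPM and 9 of at least 1000 CPM. S100a8 had 175488 CPM in replicate 1 and 186864 CPM in replicate 2, and S100a9 had 66323 and 72743 CPM. Camp, which encodes cathelicidin, had 17943 and 19708 CPM. Both mice thus gave nearly the same order of the leading markers. Ngp, neutrophilic granule protein, had 15550 and 16478 CPM, and Ltf, lactoferrin, had 6339 and 6198 CPM. The receptor for G-CSF, Csf3r, had 734 and 728 CPM. The 3 of the 16 with the fewest counts were Ly6g, Elane, neutrophil elastase, with 34 and 20 counts, and Mpo, myeloperoxidase, with 36.8 and 23.1 CPM.

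Ly6g, the gene of the antigen by which the cells were selected, had 14 counts in replicate 1 and 6 in replicate 2. These correspond to 1.17 and 0.486 CPM, close to the 0.25 and 0.243 CPM that 3 counts are worth. The best match of its transcript in another gene was Ly6a, with 84.0% identity over 868 bases, so that no near-identical copy was found among annotated transcripts. Ly6a, known as Sca-1, had 130 and 155 counts. The neighbouring Ly6c2, which encodes Ly6C, had the highest level of the Ly6 cluster on chromosome 15, with a mean of 329 TPM against 1.19 TPM for Ly6g. The counts assigned to the gene of the selection antigen were thus near the detection limit in both mice. Whether reads of its RNA were lost in annotation or assignment was not tested.

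The counts were concentrated in few genes. S100a8 alone held 17.55% of the counts of replicate 1 and 18.69% of those of replicate 2, and with S100a9 the shares were 24.18% and 25.96%. The 10 leading genes held 36.65% and 38.65%. A total of 91 genes made up the first 50 percent of counts in replicate 1 and 70 genes in replicate 2, whereas 90 percent took 2725 and 2560 genes. At the other end, 6063 genes had a mean of at least 10 CPM, 1304 of at least 100 CPM and 81 of at least 1000 CPM. Both mice thus had a few very abundant transcripts and a long tail.

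**Figure D1:**
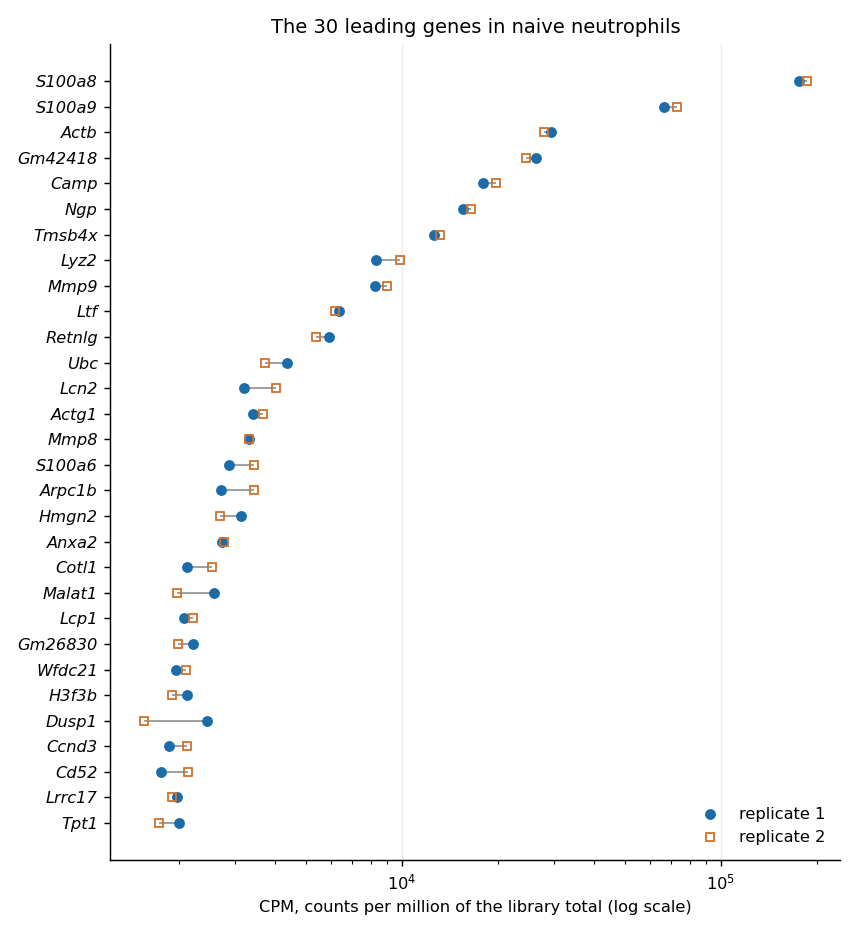
CPM (log scale) of the 30 genes with the highest mean, with a filled circle for replicate 1 and an open square for replicate 2. S100a8 lies at 175488 and 186864 CPM, and Tpt1, the last of the 30, at 2005 and 1737 CPM, with the widest gap between mice for Dusp1.

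Among the 10 leading genes by CPM, the third was Actb, cytoplasmic beta-actin, with 29310 and 27932 CPM. The fourth was the noncoding Gm42418, described below. Tmsb4x, thymosin beta 4, which binds actin monomers, had 12662 and 13207 CPM. Lyz2, lysozyme, had 8291 and 9910 CPM and Mmp9, gelatinase, 8234 and 9004 CPM. The list ended with Ltf. It therefore held calprotectin, actin and its partner, granule proteins and 1 noncoding RNA. Division by exon length left S100a8, at 352015 TPM, and S100a9, at 179558 TPM, in first and second place. It placed Camp next with 33478 TPM and brought up short transcripts such as Retnlg, resistin-like gamma, with 12900 TPM and Wfdc21, a small secreted whey acidic protein domain protein, with 6309 TPM. Of the 30 leading genes by CPM, 19 were also among the 30 leading genes by TPM.

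The sequence before the start is shown for the 5 marker genes on which the naming of these cells rests. The lines give the 100 bases before the RefSeq start of the S100 pair and of Camp, Ngp and Ltf (GRCm38.p6), 5′ to 3′ on the strand of the gene, with matches to TATAAA (an element found shortly before some starts) or TTGCNNAA (the core that C/EBP factors bind) on either strand in capitals. S100a8 is at chr3:90668971-90669070 (plus), S100a9 at chr3:90695722-90695821 (minus), Camp at chr9:109849457-109849556 (minus), Ngp at chr9:110419708-110419807 (plus) and Ltf at chr9:111019192-111019291 (plus).
S100a8: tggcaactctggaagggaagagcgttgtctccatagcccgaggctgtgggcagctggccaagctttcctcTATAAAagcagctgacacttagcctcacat
S100a9: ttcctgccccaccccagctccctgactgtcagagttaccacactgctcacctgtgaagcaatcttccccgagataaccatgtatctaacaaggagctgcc
Camp: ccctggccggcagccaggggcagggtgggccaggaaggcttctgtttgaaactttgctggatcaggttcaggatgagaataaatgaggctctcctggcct
Ngp: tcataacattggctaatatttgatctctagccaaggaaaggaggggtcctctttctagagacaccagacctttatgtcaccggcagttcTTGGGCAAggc
Ltf: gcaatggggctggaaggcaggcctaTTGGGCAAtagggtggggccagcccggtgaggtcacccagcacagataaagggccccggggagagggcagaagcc
S100a8 held TATAAA from 30 to 25 bases before its start. Ngp and Ltf each held TTGCNNAA on the opposite strand, the former from 11 to 4 and the latter from 75 to 68 bases before the start. TTGCNNAA occurred in 3.39% of 27025 promoter windows of this length, 1 a gene, and TATAAA in 5.95%. Of the 16 secondary granule genes with a window, 4 held TTGCNNAA (Ngp, Ltf, Mmp8 and Ptx3), and 1 held TATAAA. Of the 22 genes among the 30 leading ones that had a window, 3 held each of these motifs. The motif GAGGAA was also searched. GAGGAA, a form of the site that PU.1 binds, occurred in 9.76% of all windows, in 2 of the 16 secondary granule genes and in 2 of the 22 leading genes, S100a8 and Lcn2. These matches describe letters in a window and say nothing about binding.

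By class, each gene being counted once, 17 S100 genes held 24.54% of counts in replicate 1 (95% exact binomial interval 24.52 to 24.57%) and 26.38% in replicate 2 (26.36 to 26.41%). Genes of granule proteins held 7.37% and 8.08%, long noncoding RNAs 3.92% and 3.61%, and cytosolic ribosomal proteins 1.80% and 1.87%. Pseudogenes held 1.56% and 1.59%, histones 0.539% and 0.519%, small noncoding RNAs 0.433% and 0.392%, and stefins and cystatins 0.0812% and 0.0778%. Other protein-coding genes held 59.36% and 57.12%. These intervals reflect counting alone, as PCR copies of 1 molecule are not independent, and the mice differed by more than the intervals. After scaling by exon length the share of the S100 genes was 52.84% and 54.50%. Genes of the mitochondrial genome were not analysed here, so every share and CPM is of counts without those genes. The nuclear genes of the respiratory chain and ATP synthase, 95 in all, held 0.608% and 0.632% of counts.

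**Figure D2:**
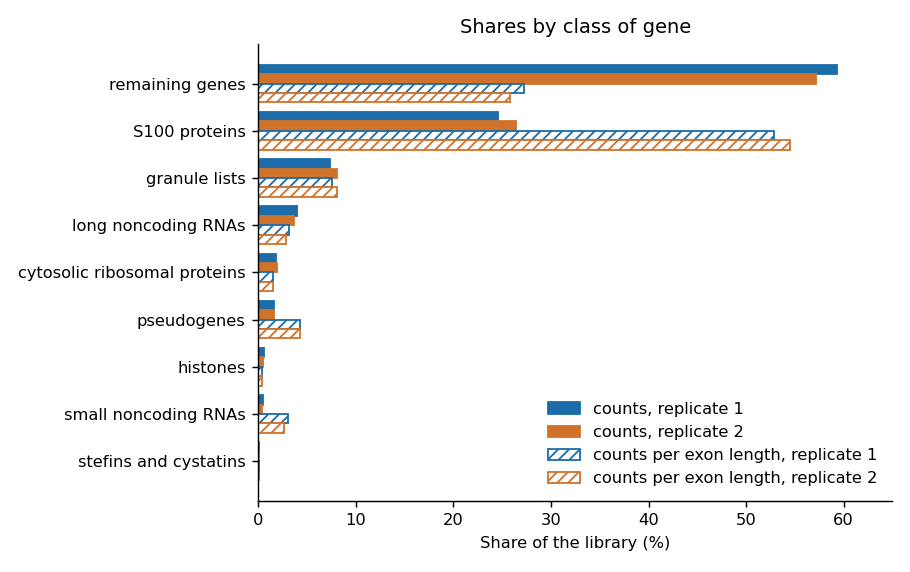
Share of each library (%) by class of gene, as filled bars for counts and hatched bars for counts divided by exon length, in blue for replicate 1 and orange for replicate 2. S100 genes hold 24.54% and 26.38% of counts but 52.84% and 54.50% after scaling by length, while small noncoding RNAs and pseudogenes also take larger shares on that scale.

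Within the S100 family, the levels spanned the whole range of the libraries. After S100a8 and S100a9 came S100a6, calcyclin, with 2866 and 3434 CPM and a mean of 3103 TPM. S100a11 had 675 and 678 CPM and 1786 TPM. S100a13 had 59.5 and 66.4 CPM, and S100a4, which is known from motile fibroblasts and tumor cells, 14.1 and 18.2 CPM. S100a10, the partner of annexin A2, had 3.09 and 3.72 CPM (mean 3.78 TPM), although Anxa2 itself had 2738 and 2765 CPM (mean 995 TPM). Of the 17 family members, 11 had at least 3 counts in both libraries. Chromosome 3, which carries most of the family in a cluster, held 27.11% and 28.80% of all counts, and 2.93% and 2.84% without S100a8 and S100a9.

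Granule genes differed by granule. The 17 secondary granule genes summed to 62040 and 68454 CPM, the 10 tertiary granule genes to 10410 and 10978 CPM and the 10 primary granule genes to 1248 and 1358 CPM. The median level of a member was 728 and 880 TPM for secondary, 102 and 87.8 TPM for tertiary and 7.51 and 8.01 TPM for primary granule genes. This order was the same in both mice. In the secondary list, besides Camp, Ngp and Ltf, Lcn2 (lipocalin 2, which binds bacterial siderophores) had 3195 and 4024 CPM and Mmp8, neutrophil collagenase, 3313 and 3324 CPM. Slpi, an inhibitor of neutrophil elastase, had 1539 and 2058 CPM, and Chil3, the chitinase-like protein Ym1, 1543 and 1631 CPM. The exceptions were Olfm4, with 23 and 17 counts, and Ptx3, pentraxin 3, with 0 in both libraries.

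Of the primary granule list, Cd63, a membrane protein shared with lysosomes, and Serpinb1a, an inhibitor of elastase and cathepsin G, made up most counts, with 823 and 913 CPM and with 317 and 342 CPM. The enzymes that define the granule were scarce. Mpo, myeloperoxidase, had 441 and 285 counts (36.8 and 23.1 CPM) and Prtn3, proteinase 3, had 131 and 181 counts. Elane, neutrophil elastase, had 34 and 20 counts, and Ctsg, cathepsin G, 34 and 26. On the scale per length, Mpo had a mean of 11.8 TPM and Elane 3.07 TPM, against 33478 TPM for Camp. In the tertiary list, Mmp9 was followed by Adam8, a surface metalloprotease, with 737 and 659 CPM. The integrin subunits Itgb2 and Itgam (CD18 and CD11b) had 445 and 430 CPM and 419 and 313 CPM. Mmp25 had 32.3 and 24.9 CPM and Hpse, heparanase, 16 counts in each mouse.

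Genes of the later maturation stages had higher median levels than those of the earliest. Median levels in replicate 1 were 1.2 TPM for 10 stem and progenitor genes, 8.03 TPM for 10 promyelocyte genes, 362 TPM for 12 myelocyte genes, 793 TPM for 10 band and immature genes and 251 TPM for 18 mature genes. In replicate 2 these were 0.722, 7.5, 447, 781 and 254 TPM. The lists share members with the granule lists and are not independent of them. Of the early genes, Cd34 had 14 and 12 counts, Myb, a transcription factor of progenitors, 593 and 533, Kit, the stem cell factor receptor, 88 and 61, and Cebpa, which directs entry into the granulocyte lineage, 99 and 126. Cebpe, which drives secondary granule genes, had 92.1 and 92.3 CPM, and Fcnb, ficolin B, 70.8 and 77.5 CPM. Clec12a, a C-type lectin, stood above the rest of the promyelocyte list with a mean of 62.2 TPM.

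**Figure D3:**
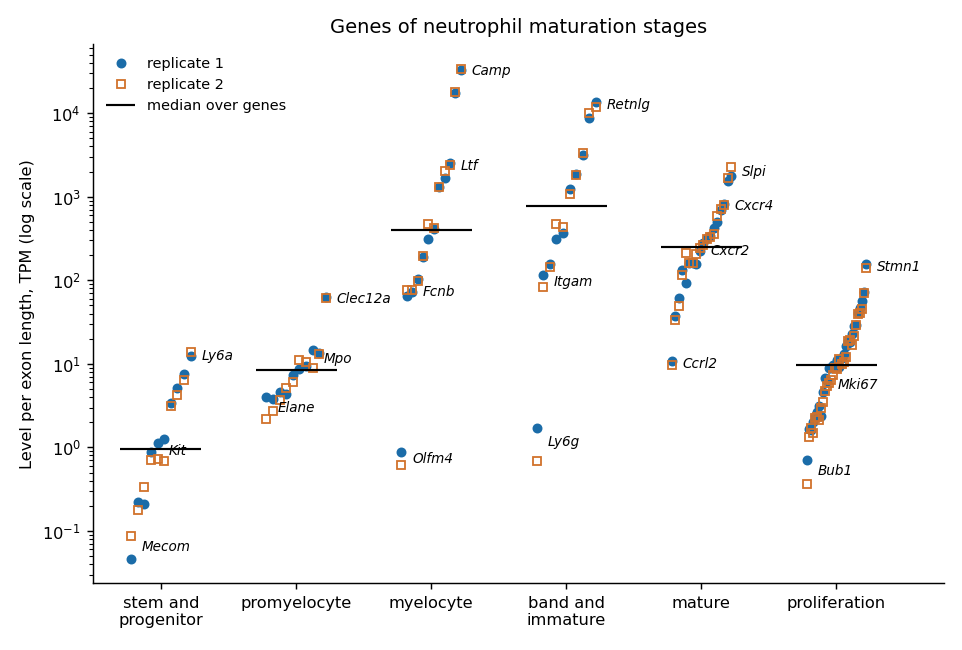
Level per exon length (TPM, log scale) of each gene of 5 maturation stage lists and a proliferation list, with a filled circle for replicate 1, an open square for replicate 2 and a bar at the median over genes. Myelocyte, band and mature genes lie mostly above 100 TPM, stem cell and promyelocyte genes below 20 TPM but for Clec12a, and Ly6g and Olfm4 stand far below the rest of their lists.

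Mature genes were present at mid to high levels. All 18 of the mature list had at least 10 CPM. Retnlg of the band list had 5920 and 5407 CPM. Msrb1, a methionine sulfoxide reductase, had 1398 and 1602 CPM, Mxd1, an antagonist of MYC, 1751 and 1762 CPM, and Il1b 690 and 850 CPM. Il1r2, the decoy receptor for interleukin 1, had 590 and 518 CPM, Fpr2, a formyl peptide receptor, 651 and 710 CPM, and Cd101, a surface protein of mature neutrophils, 149 and 125 CPM. The receptors that hold neutrophils in the marrow and release them were both found. Cxcr4, the CXCL12 receptor that retains them, had 1088 and 1093 CPM (mean 814 TPM), and Cxcr2, the receptor for CXCL1 and CXCL2 that draws them out, 490 and 557 CPM (mean 231 TPM). Per length, Cxcr4 was above Cxcr2 in each mouse. Cxcr1 had 22 and 47 counts. Alpl, alkaline phosphatase, had 3 and 1 counts.

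Proliferation genes were detected without exception, at low levels. All 30 had at least 1 CPM, 27 had at least 10 CPM and 5 at least 100 CPM. These 5 were Stmn1, stathmin, with 221 and 204 CPM, Top2a, topoisomerase II alpha, with 186 and 149 CPM, Birc5, survivin, with 140 and 115 CPM, Plk1, with 116 and 117 CPM, and Cdk1, with 104 and 110 CPM. Mki67, the gene of the Ki-67 antigen, had 45.9 and 41.1 CPM. Of the genes of DNA replication, Mcm2 had 13.3 and 12.1 CPM and Rrm1 13.4 and 11.2 CPM. The list summed to 1475 and 1339 CPM. Ccnd3, cyclin D3, which is outside the list, had 1861 and 2123 CPM.

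Genes of migration and of the oxidative burst were present throughout. The 17 actin cytoskeleton genes summed to 58457 and 59039 CPM. After Actb and Tmsb4x the highest counts were those of Actg1 (3425 and 3674 CPM), Arpc1b (2710 and 3452 CPM) and Cotl1 (2123 and 2552 CPM), which encode gamma-actin, a subunit of the Arp2/3 complex and coactosin-like protein. Pfn1, profilin, had 55.2 and 59.6 CPM. All 8 genes of the NADPH oxidase, which makes superoxide, had at least 10 CPM. Cybb (gp91phox) had 1448 and 1227 CPM and Ncf1 (p47phox) 1090 and 1049 CPM. Hvcn1, the proton channel that balances its charge, had 25.5 and 27.9 CPM. The pentose phosphate pathway, which makes the NADPH that the oxidase uses, was represented by Taldo1, with 1779 and 1843 CPM, and Pgd, with 1652 and 1677 CPM. Both are outside the lists and were chosen after their values were seen.

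Of the glucose transporters, Slc2a3 had the highest level. Slc2a3 (GLUT3) had 562 and 636 CPM (mean 111 TPM) and Slc2a1 (GLUT1) 184 and 148 counts (mean 5.27 TPM). Of 16 glycolytic enzyme genes, 13 had at least 10 CPM. Gpi1 had the most counts, with 810 and 839 CPM, before Gapdh with 452 and 461 CPM and Pkm with 385 and 434 CPM. Pgk1 (60.5 and 42.2 CPM) and Pgam1 (125 and 80.2 CPM) were less certain, since 100% of the windows of 75 bases in the pseudogenes Pgk1-rs7 and Pgam1-ps2 also occurred in them. Pgam1-ps2 had 441 and 427 CPM.

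Among transcription factors of granulopoiesis, Fos had the highest level, a mean of 499 TPM, and Mxd1 had 335 TPM. Fos had 978 and 758 CPM, Max 800 and 874 CPM, Klf6 872 and 708 CPM and Junb 530 and 546 CPM. Spi1, which encodes PU.1, had 407 and 485 CPM. Among the C/EBP factors, mean levels were 301 TPM for Cebpb, 100 TPM for Cebpe, 73.2 TPM for Cebpd and 4.71 TPM for Cebpa. Cebpb therefore lay above Cebpa, and Myc had 4 and 5 counts. Gfi1, a repressor needed for neutrophil development, had 30.9 and 32.0 CPM. Irf8, which directs monocyte fate, had 57.9 and 43.2 CPM.

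Ccl6, a CC chemokine, had 1594 and 1477 CPM, Cxcl2, a ligand of CXCR2, 1006 and 657 CPM and Osm, oncostatin M, 823 and 740 CPM. Il1rn, the antagonist of the interleukin 1 receptor, had 200 and 178 CPM. Tnf had 21.9 and 26.3 CPM, and Il1a had 7 and 11 counts. Of 16 cytokine and chemokine genes, 11 had a mean of at least 10 CPM. Among surface receptors, Fcgr3, a receptor for IgG, had 596 and 538 CPM, Clec4e, a lectin that senses mycobacterial lipids, 548 and 629 CPM and C5ar1, the receptor for complement C5a, 327 and 302 CPM. Of 19 interferon-stimulated genes, Ifitm3 had the highest level, with a mean of 1090 TPM, and Mx1 and Mx2 had means of 0.864 and 0.411 CPM.

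Of the long noncoding RNAs, Gm42418 held most counts, with 26375 and 24470 CPM (chr17:39846958-39848788). Without it the class fell from 3.92% and 3.61% to 1.28% and 1.16% of counts. Its transcript was the reverse complement of an annotated ribosomal RNA, CT010467.1, with 100% identity over 1244 bases, and 93.1% of its windows of 75 bases also occurred in that rRNA. No strand of the counting is given in the sources used here, so reads of the rRNA and of Gm42418 cannot be told apart. Malat1, a nuclear RNA, had 2574 and 1982 CPM, Gm26830 2225 and 1991 CPM and Neat1, the scaffold of paraspeckles, 357 and 320 CPM. Xist, which silences an X chromosome in female cells, had 287 and 247 CPM. Of 4 genes on the Y chromosome, Ddx3y, Eif2s3y and Kdm5d had 0 counts and Uty had 2 and 0. Both libraries thus had Xist and no more than 2 counts in these Y-linked genes.

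Most counts of small noncoding RNAs fell on predicted genes of the misc_RNA type. Gm25072 had 985 and 948 CPM, Gm22662 479 and 456 CPM and Gm27956 434 and 376 CPM. Of 10 structural RNAs listed by name, 7 had a row and 1 had a mean of at least 1 CPM. This was Rn7sk, the 7SK RNA, with 170 and 198 counts, whereas Rmrp had 6 and 11. Outside that list, the snRNA gene Gm22710 had 2839 and 1928 counts (mean 2129 TPM). All snRNA genes held 0.0619% and 0.0523% of counts. Of the snoRNAs, Snora30 had the most counts, with 130 and 84.7 CPM. MicroRNA genes together held 0.0159% and 0.0161% of counts. All small noncoding RNAs took 3.03% and 2.58% on the scale per exon length.

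Pseudogenes held more counts than the genes they copy in many cases. Of 31 pseudogenes of at least 10 CPM that are named after a gene, 19 held more counts than that gene. Rps12, a ribosomal protein gene, had 0 counts in both libraries, and its copy Rps12l1 had 6096 and 7017. All of the 325 windows of 75 bases in Rps12l1 also occur in Rps12. Likewise Rpl10a had 18 and 37 counts and Rpl10a-ps1 1501 and 1543, and Rps13 had 356 in each mouse and Rps13-ps2 2458 and 2718. Atp6v0c, a subunit of the proton pump of lysosomes, had 41.0 and 79.5 CPM against 1148 and 1036 CPM for Atp6v0c-ps2. The most counted pseudogene, Gm8430, had 1394 and 1393 CPM, and 82.1% of its windows occur in Rps27a, which had 97.0 and 93.8 CPM. Levels of these genes are therefore uncertain, since reads that fit a gene and its copy equally can be assigned to either. With 41 such copies that had at least 3 counts in both libraries, pseudogenes named after ribosomal protein genes held 0.207% and 0.211% of counts. This share leaves out copies under other names and is therefore too low for all such copies. Among those left out, Gm8430 held 0.139% in each library. Gm14303, of which all windows occur in Rps29, held 0.0595% and 0.0598%.

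Ribosomal protein genes themselves ranged from Rps9, with 1467 and 1675 CPM, and Rps14, with 1388 and 1610 CPM, to Rps12 at 0. Of 79 genes of the class, 78 had at least 3 counts in both libraries. Per length, Rplp1 and Rps21 had the highest means, 929 TPM and 915 TPM. The whole class held less of the counts than Actb alone. Mitochondrial ribosomal proteins, 77 genes, held 0.114% and 0.112%.

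Sequences of mitochondrial origin appeared in nuclear copies. Gm13340 on chromosome 2, a copy of mt-Co1 (subunit I of cytochrome c oxidase), had 578 and 552 CPM. Gm13341, a copy of mt-Co2, had 4836 and 4697 counts, Gm11410, a copy of mt-Cytb, 2319 and 2419 and Gm13339, a copy of mt-Nd2, 169 and 176. The transcripts were 97.6%, 95.9%, 92.9% and 96.7% identical to the mitochondrial genes. Together they held 0.119% and 0.114% of counts. Whether these counts came from the nuclear copies or from mitochondrial transcripts was not tested. A stretch of 75 bases, the read length in the labels, is shown from Gm13340 (chr2:22589114-22589188, minus strand) and mt-Co1 (chrM:5787-5861, plus strand) of GRCm38, with the bases that differ in capitals.
Gm13340: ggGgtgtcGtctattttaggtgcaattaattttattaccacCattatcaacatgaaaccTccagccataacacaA
mt-Co1: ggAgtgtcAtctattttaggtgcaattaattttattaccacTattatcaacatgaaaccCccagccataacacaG
This window has 5 differences in 75 bases. It was chosen for having the most differences within a set limit, so it is not a typical window. In 15% of the windows of Gm13340 there was no difference, and for Gm11410 no window was shared in full with mt-Cytb.

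Traces of other cell types were read from marker lists, and the part of other cells in these counts was not tested. The erythroid list summed to 1490 and 1251 CPM over 15 genes with a row. Globins made up most of it, with 671 and 565 CPM for Hba-a2 and 332 and 280 CPM for Hbb-bs. Klf1, a transcription factor of erythroid precursors, had 5.17 and 3.08 CPM. The monocyte and macrophage list summed to 1447 and 1157 CPM. The members with the most counts were Vcam1 (598 and 424 CPM), C1qa (218 and 193 CPM) and Cd5l (171 and 158 CPM), which are known from macrophages of the marrow and spleen that take up red cells and dying neutrophils. The monocyte receptor Ccr2 had 32 and 30 counts and Csf1r 51.6 and 56.1 CPM. The macrophage iron exporter Slc40a1 had 248 and 210 CPM.

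Lymphoid markers were low. The T cell list summed to 26.0 and 20.3 CPM, in which Cd3d had the most counts, 142 and 124. Trac had 0 counts in both libraries, Cd3e 4 and 0, Cd3g 1 and 1 and Trbc2 2 and 1. The NK cell list summed to 2.59 and 2.91 CPM, with Ncr1 at 1 count in each mouse and Prf1 at 0. At this depth 3 counts allow up to 0.25 and 0.243 CPM for a gene at 0. The B lineage list summed to 89.5 and 115 CPM, with Cd79a at 80 and 74 counts. The plasma cell list summed to 98.5 and 267 CPM, mainly from Igha.

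Platelet, granulocyte and stromal markers varied more by gene. Of the megakaryocyte and platelet list (292 and 274 CPM), Gp1bb, which overlaps Sept5 on the same strand, had 102 and 88.9 CPM and Ppbp 49.3 and 40.1 CPM. The dendritic cell list summed to 181 and 197 CPM, with Clec9a at 7 and 9 counts and Xcr1 at 50.4 and 42.2 CPM. The eosinophil list summed to 130 and 120 CPM, of which Ear2 made up 58.1 and 54.1 CPM. Eosinophil peroxidase (Epx) had 5 and 1 counts. The basophil and mast cell list summed to 1551 and 1240 CPM, but Hdc, histidine decarboxylase, which makes histamine, made up 1525 and 1216 CPM. Without it the list fell to a mean of 25.5 CPM. The mast cell proteases Mcpt4, Tpsb2 and Cma1 and the IgE receptor subunit Ms4a2 had 0 counts, whereas the basophil proteases Mcpt8 and Prss34 had 57 and 74 and 192 and 175 counts. Cpa3, carboxypeptidase A3, had 23 and 18 counts. The stroma and endothelium list summed to 71.0 and 73.2 CPM, of which Lepr made up 35.9 and 43.7 CPM.

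**Figure D4:**
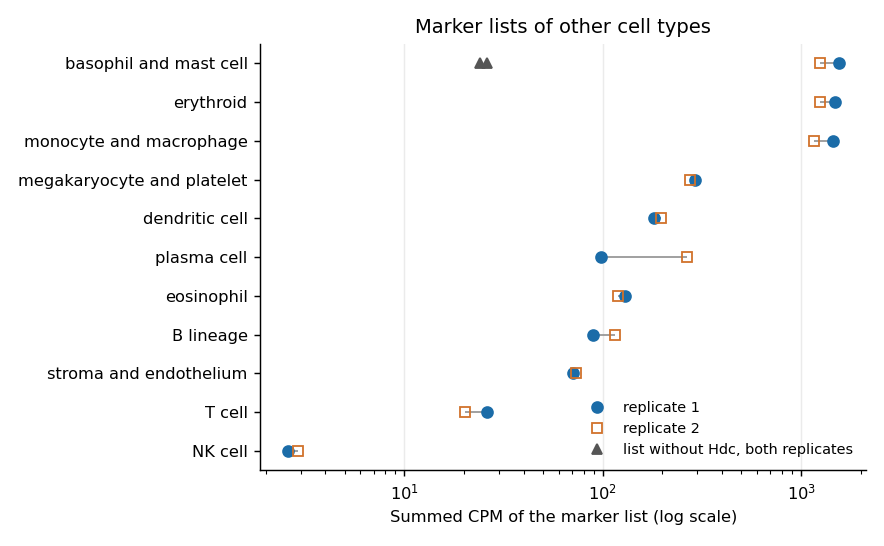
Summed CPM (log scale) of marker lists of 11 other cell types, with a filled circle for replicate 1, an open square for replicate 2 and triangles for the basophil and mast cell list without Hdc. Erythroid and macrophage lists lie above 1000 CPM in both mice, the NK cell list at 2.59 and 2.91 CPM, and the plasma cell list shows the widest gap between mice.

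Between the mice, most genes differed little. Over the 12945 detected genes, log2 CPM of the mice had a Pearson's r of 0.981, and genes are not independent replicates. Of 6300 genes with at least 10 CPM in a library, the median difference was 1.12-fold and 34 genes differed by over 2-fold. With 1 library a mouse, error beyond counting exists but could not be measured. The 95% counting interval of the ratio lay above 1 for 34.2% of these genes (replicate 1 above replicate 2) and below 1 for 12.6%. After TMM scaling, which centres the bulk of genes, these shares were 20.3% and 23.3%, so directions of small differences depend on the scale. The differences below are given as ratios of CPM, replicate 1 over replicate 2, with that interval.

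Genes of antibody secretion were higher in replicate 2. Ighm, the constant region of IgM, had 87 counts in replicate 1 and 524 in replicate 2, a ratio of 0.171 (interval 0.135 to 0.215). Igha, of IgA, had 741 and 1901 counts (ratio 0.402, 0.368 to 0.437), and Jchain, which joins IgA and IgM into polymers, 306 and 1168 (ratio 0.27, 0.237 to 0.306). Of the 5 immunoglobulin and plasma cell genes compared, all 5 were higher in replicate 2 on both scales, against 12.6% and 23.3% of all genes. Of 3 early B-cell genes compared, 1 was higher in replicate 1 and 0 in replicate 2, and after TMM scaling 0 in either. Vpreb1, the surrogate light chain, had 102 and 27 counts (ratio 3.89, 2.53 to 6.19). Rag1, which overlaps another gene on the same strand, had 31 and 11 counts. Both were under the 10 CPM needed to be compared. Pax5 had 133 in each mouse. The antibody genes and Vpreb1 thus differed between the mice in opposite directions, the latter on few counts. The immunoglobulin gene Ighg2b also had more counts in replicate 1, with 13 and 3, too few to be compared. Both lists, and those of immediate early, tissue macrophage, cytokine and interferon-stimulated genes, were put together after their values had been seen.

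Immediate early genes, which respond within minutes to stimuli and to handling, were among the abundant genes that differed between the mice. Thbs1, thrombospondin 1, had 6560 and 3602 counts (ratio 1.88, 1.80 to 1.96), and Dusp1, a phosphatase of MAP kinases, 29324 and 19193 (ratio 1.57, 1.55 to 1.60). Fos had a ratio of 1.29 and Egr1 of 1.37, and the chemokine gene Cxcl2 of 1.53 with 12069 and 8120 counts. Other members differed in the opposite direction: Fosb had a ratio of 0.698, Ier5 0.802 and Klf2 0.86. Of 21 immediate early genes compared, 12 were higher in replicate 1 and 5 in replicate 2, and after TMM scaling 10 and 8. Tissue macrophage genes were higher in replicate 1 for 12 of 15 compared, and for 9 after TMM scaling. Of all 6300 genes, 34.2% were higher in replicate 1 and 12.6% in replicate 2, and after TMM scaling 20.3% and 23.3%. Among the tissue macrophage genes, Mertk had a ratio of 1.70 (1.49 to 1.94) and Vcam1 of 1.41 (1.36 to 1.46). Siglec1 went the other way with 0.79 (0.726 to 0.859).

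Secondary granule genes were more often higher in replicate 2. This was so for 11 of 15 compared, and for 14 after TMM scaling. Of all 6300 genes, 12.6% were higher in replicate 2 and 34.2% in replicate 1, and after TMM scaling 23.3% and 20.3%. The counts of lists in this paragraph are to be read beside these shares. Genes with many counts have narrow intervals, so small differences are called in them more readily. Lrg1 had 4926 and 8546 counts (ratio 0.594, 0.573 to 0.615), Cd177, a surface protein carried by these granules, 7642 and 12620 (ratio 0.624, 0.606 to 0.642) and Lcn2 a ratio of 0.794. Ltf went the other way with 1.02 (1.01 to 1.03), a direction that TMM scaling turned. Of 13 interferon-stimulated genes compared, 9 were higher in replicate 2 and none in replicate 1. Ifit3 had 416 and 620 counts. Of 27 proliferation genes, 13 were higher in replicate 1 and 1 in replicate 2, whereas TMM scaling left 9 and 5.

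**Figure D5:**
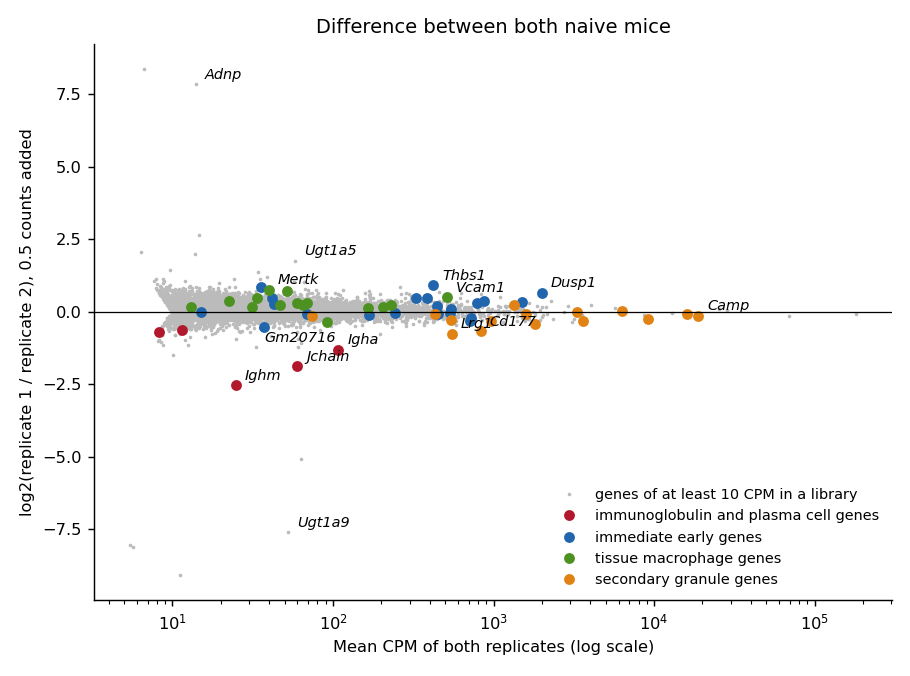
log2 ratio of replicate 1 to replicate 2 (0.5 counts added) against mean CPM (log scale) for 6300 genes of at least 10 CPM in a library, with lists in color. Immunoglobulin genes lie below 0, Thbs1 and Dusp1 above it, and Adnp and Ugt1a9, which share sequence with neighbours, lie at the extremes.

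Several of the most extreme ratios fell on genes that overlap another or on pseudogenes. Adnp had 336 counts in replicate 1 and 1 in replicate 2, but the gene Gm20716, which overlaps it on the same strand, had 237 and 572, and their sums were 573 and 573. Ugt1a9 had 6 and 1294 counts and Ugt1a5, with which it shares exons, 1079 and 327. Their sums were 1085 and 1621. Gvin1 had 159 and 0 counts, and the pseudogene Gm18853, which overlaps it on the same strand, had 1 and 0. Gm11273 had 0 and 277 counts. Gm10123, a processed pseudogene, had 43 and 1520 counts. Further processed pseudogenes with extreme ratios were Gng5-ps (0 and 141 counts), Gm13736 (0 and 135) and Gm6768 (302 and 49). Other genes with large ratios were Wfdc17, with 434 and 1050 counts, and Upp1, uridine phosphorylase, with 491 and 1062 counts. Rbm3, a cold-inducible RNA-binding protein, had 588 and 234 counts. For Gm11273, Wfdc17, Upp1 and Rbm3, no statement is made on whether they overlap or copy others. The sum over Adnp and Gm20716 was thus equal in both mice.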

How the data were processed

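Total RNA of neutrophils selected with Ly6G beads was sequenced in 6 libraries, of which the 2 naive ones were used. Per the labels, reads of 75 bases from 1 end were made, while the methods give up to 50 bases. The authors aligned reads to mm10 with Bowtie2 and estimated expected counts per gene with RSEM (version 1.2.31 in the submitters' processing notes). The deposited counts are whole numbers and were used as they stand. Of 38887 identifiers, 37570 matched the GENCODE annotation of GRCm38, and 1317 did not (0.385% and 0.357% of counts). None of the 37 genes of the mitochondrial genome was analysed here.

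CPM used each library's total, and TPM the union of a gene's exons. A gene was detected with at least 3 counts in both libraries. Shares have exact binomial intervals, and ratios between mice have exact conditional binomial intervals. The latter were run on simulated counts with counting error only, which says nothing about error beyond counting. No test was made, since there was 1 group. TMM factors came from edgeR 4.0.16 and size factors from DESeq2 1.42.0. Transcripts were compared with BLAST+ 2.17.0. Named genes were the leading ones by CPM and TPM, those of each noncoding class and of each list, defining markers at 0, the largest ratios between mice and the leading genes in no list. Members and lists were chosen with earlier results of these data known. Some members of the lists are not reported here.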

Additional observations from a re-analysis of the deposited data

How the results depend on the processing

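Of 87 alternative values for 27 results, 48 left out a replicate, which with 2 libraries gives the value of the other mouse and says nothing about stability. The plasma cell list moved most in this way, from 182 CPM to 267 CPM without replicate 1 and 98.5 CPM without replicate 2. Of the other 39, 22 moved by less than the spread between the mice or, for counts of genes, stayed within 1.5-fold. Division by exon length raised the share of the 10 leading genes from 37.65% to 65.71% and that of S100 genes from 25.46% to 53.67%, and gave 1.53% for ribosomal proteins, 2.95% for long noncoding RNAs, 2.81% for small noncoding RNAs and 4.25% for pseudogenes. Over protein-coding genes only, S100 genes held 27.14%, granule genes 8.23% and ribosomal proteins 1.96%. With pseudogenes named after them, an alternative chosen after seeing the data, ribosomal proteins held 2.05%. Copies under other names, such as Gm8430, were not added. Of the 30 leading genes by CPM, 19 were shared with the ranking per kb of exons and 15 with that per kb less the read length. The basophil and mast cell list summed to 25.5 CPM without Hdc, also chosen after seeing the data. Genes higher in replicate 1 numbered 2154, but 1276 after TMM scaling and 1397 with DESeq2 size factors. Those higher in replicate 2 numbered 796, but 1467 and 1347. Leaving out the genes of the mitochondrial genome was not run, since none was analysed. No paired analysis was possible because only 1 group was used. With 1 library a mouse, no error beyond counting could be measured for a ratio.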
